A study of Homo sapiens with 10 samples.

Results

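The genes that epithelial cells use to build and control their contacts were followed in 10 RNA-seq libraries of 3 human liver cancer cell lines. They comprised 41 genes chosen by name out of the 58302 listed in each gene table, and they were found by matching symbols to Ensembl identifiers. By role, 8 were transcription factors or splicing regulators, 14 belonged to tight junctions, 7 were keratins, 7 were desmosome or plakin genes, and 5 were surface, polarity or trafficking genes. All 41 were present in every table.

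SK-hep1 cells carried a mock control, PSPC1, PSPC1 with PTK6 (PSPC1/PTK6), PSPC1-Y523F, or PSPC1-Y523F with PTK6 (PSPC1-Y523F/PTK6). PSPC1 is a paraspeckle RNA-binding protein, and PTK6 is a nonreceptor tyrosine kinase that the study found in both nucleus and cytoplasm. Y523F replaces the tyrosine of PSPC1 that PTK6 phosphorylates by phenylalanine. Mahlavu cells carried a mock control, PSPC1-CT131, a C-terminal fragment of PSPC1 fused to EGFP, or Mut-NLS-CT131, the same fragment with its nuclear localization sequence disrupted. Huh-7 cells were left untreated or given 10 ng/ml hepatocyte growth factor (HGF) for 48 h. The design asked how PSPC1 with or without PTK6, the inhibitory fragment, and HGF change these cells. Each condition had 1 library, so no difference between conditions within a line had a replicate, and whether a transfectant was 1 clone or a pool was not given in the sources used here. Whether libraries of the 3 lines were prepared together was not given in the sources used here, and only the Huh-7 tables lack counts, so a line and its preparation cannot be told apart.

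Reads on genes ranged from 15245935 to 24278662 per library. PSPC1 had 0 reads in SK-hep1 mock and 7.01 and 26.4 FPKM in the transfectants with PSPC1, without and with PTK6, and 2.28 and 70.9 FPKM in those with PSPC1-Y523F, without and with PTK6. PTK6 stood at 16.7 and 10.5 FPKM with its own construct and between 4.09 and 5.69 FPKM in the other SK-hep1 libraries. In Mahlavu, however, PSPC1 was at 47.3 FPKM in mock. It was at 30.8 and 22.5 FPKM in the libraries labelled here PSPC1-CT131 and Mut-NLS-CT131. Their sample labels read overexpression of the c-terminal of PSPC1 and of an NLS mutation of PSPC1, and the second names no fragment. PSPC1-CT131 and Mut-NLS-CT131 are the study's names for such constructs and serve here as labels only. A list of hepatocyte genes had 21 of 21 genes at 1 FPKM or more in both Huh-7 libraries, 1 to 3 in SK-hep1 and 1 or 2 in Mahlavu. The summed level of that list was between 39671 and 40241 FPKM in Huh-7, between 17.4 and 45.1 FPKM in SK-hep1 and between 9.48 and 14.1 FPKM in Mahlavu, and ALB, the main serum protein made by hepatocytes, was listed at 0 in all 8 libraries of the last 2 lines.

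Epithelial sheets are held together by tight junctions, in which claudins, occludin and other tetraspan proteins are tied to actin by scaffolds such as ZO-1 (TJP1), ZO-3 (TJP3) and cingulin (CGN). Desmosomes join neighbouring cells through the cadherins DSG2 and DSC2, and plakophilins and desmoplakin (DSP) link these to keratin filaments. Keratin filaments are obligate pairs of a type I and a type II chain, and KRT8 with KRT18 is the pair of the hepatocyte, to which bile duct cells add KRT7 and KRT19. The splicing factors ESRP1 and ESRP2 and the transcription factors of the GRHL and OVOL families keep the epithelial state, and repressors such as ZEB1 and SNAI1 can silence epithelial genes through the E-box letters CAGGTG.

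Promoter sequence is shown for 5 junction genes that were under 1 FPKM in SK-hep1 and were read in Huh-7, 4 chosen because they hold these letters and MARVELD2 because it does not. Each run is the 250 bases before a RefSeq start site (GRCh38.p14), 5′ to 3′ on the strand of the gene, and capitals mark CAGGTG or its reverse complement CACCTG. DSG2 lies on the plus strand at chr18:31497927-31498176, DSP on the plus strand at chr6:7541421-7541670, CRB3 on the plus strand at chr19:6464021-6464270, CLDN7 on the minus strand at chr17:7262479-7262728 and MARVELD2 on the plus strand at chr5:69414866-69415115.
DSG2: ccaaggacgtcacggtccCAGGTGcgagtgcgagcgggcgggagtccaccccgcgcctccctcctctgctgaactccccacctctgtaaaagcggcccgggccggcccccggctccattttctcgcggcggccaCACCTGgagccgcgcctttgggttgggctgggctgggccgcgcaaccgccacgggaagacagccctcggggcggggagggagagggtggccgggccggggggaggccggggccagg
DSP: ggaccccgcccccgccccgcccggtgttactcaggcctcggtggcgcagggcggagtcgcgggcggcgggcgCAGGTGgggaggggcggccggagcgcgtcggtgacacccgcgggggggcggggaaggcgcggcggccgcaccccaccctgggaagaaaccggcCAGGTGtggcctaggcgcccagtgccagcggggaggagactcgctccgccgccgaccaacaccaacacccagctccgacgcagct
CRB3: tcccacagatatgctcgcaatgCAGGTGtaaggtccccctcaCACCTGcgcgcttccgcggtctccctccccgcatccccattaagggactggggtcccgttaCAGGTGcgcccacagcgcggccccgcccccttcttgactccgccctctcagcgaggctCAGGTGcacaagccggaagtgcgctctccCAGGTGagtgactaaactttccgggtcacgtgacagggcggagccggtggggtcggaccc
CLDN7: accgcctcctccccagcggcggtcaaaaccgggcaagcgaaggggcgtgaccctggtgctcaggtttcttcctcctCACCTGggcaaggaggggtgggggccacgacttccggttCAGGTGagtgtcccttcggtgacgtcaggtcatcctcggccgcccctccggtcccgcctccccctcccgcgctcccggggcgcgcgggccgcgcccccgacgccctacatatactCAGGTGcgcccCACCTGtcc
MARVELD2: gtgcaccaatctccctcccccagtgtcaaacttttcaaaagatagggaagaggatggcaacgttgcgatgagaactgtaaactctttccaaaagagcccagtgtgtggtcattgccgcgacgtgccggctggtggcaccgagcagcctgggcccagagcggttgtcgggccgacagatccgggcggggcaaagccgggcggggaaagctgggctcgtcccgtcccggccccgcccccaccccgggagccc
The letters occurred 2 times in the DSG2 run, 2 times in the DSP run, 5 times in the CRB3 run and 4 times in the CLDN7 run, on either strand, and were not in the MARVELD2 run. RefSeq windows of 300 bases, which add the 50 bases after the start site, were matched for 21 of the 41 genes. The 6 letters were found in 13 of these 21 genes and in 15 of their 30 windows (50%), some of which overlap, against 20.6% of all 35116 windows. Genes with none in their windows included CLDN1, CGN and MARVELD2, all higher in Huh-7, and genes with them included TJP1 and OCLN, which were read in every line. A match in a window is a description of its letters only.

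In the number of epithelial genes expressed, Huh-7 stood above the other lines. At 1 FPKM or more there were 30 and 31 of the 41 genes in Huh-7, 22 or 23 in the Mahlavu libraries and 18 to 20 in the SK-hep1 libraries. More genes of any kind were also read in Huh-7. Genes above 0 FPKM numbered 25838 and 25346 in Huh-7, 20999 to 24052 in Mahlavu and 19497 to 21544 in SK-hep1. Over pairs of libraries of a line, a mean of 1 FPKM was reached by 14264, 13051 to 13218 and 11717 to 12280 genes. FPKM are fragments per kilobase of gene scaled to library depth, used here as deposited whenever a level is given, and in bulk RNA fewer cells that express a gene and less RNA per cell cannot be told apart. By the median of each line, all 14 tight junction genes reached 1 FPKM in Huh-7, against 8 in Mahlavu and 7 in SK-hep1. Keratins had the opposite order, with 6 of 7 in SK-hep1, 5 in Mahlavu and 3 in Huh-7. Of the 7 desmosome and plakin genes, 6 reached that level in Huh-7, 5 in Mahlavu and 3 in SK-hep1.

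**Figure D1:**
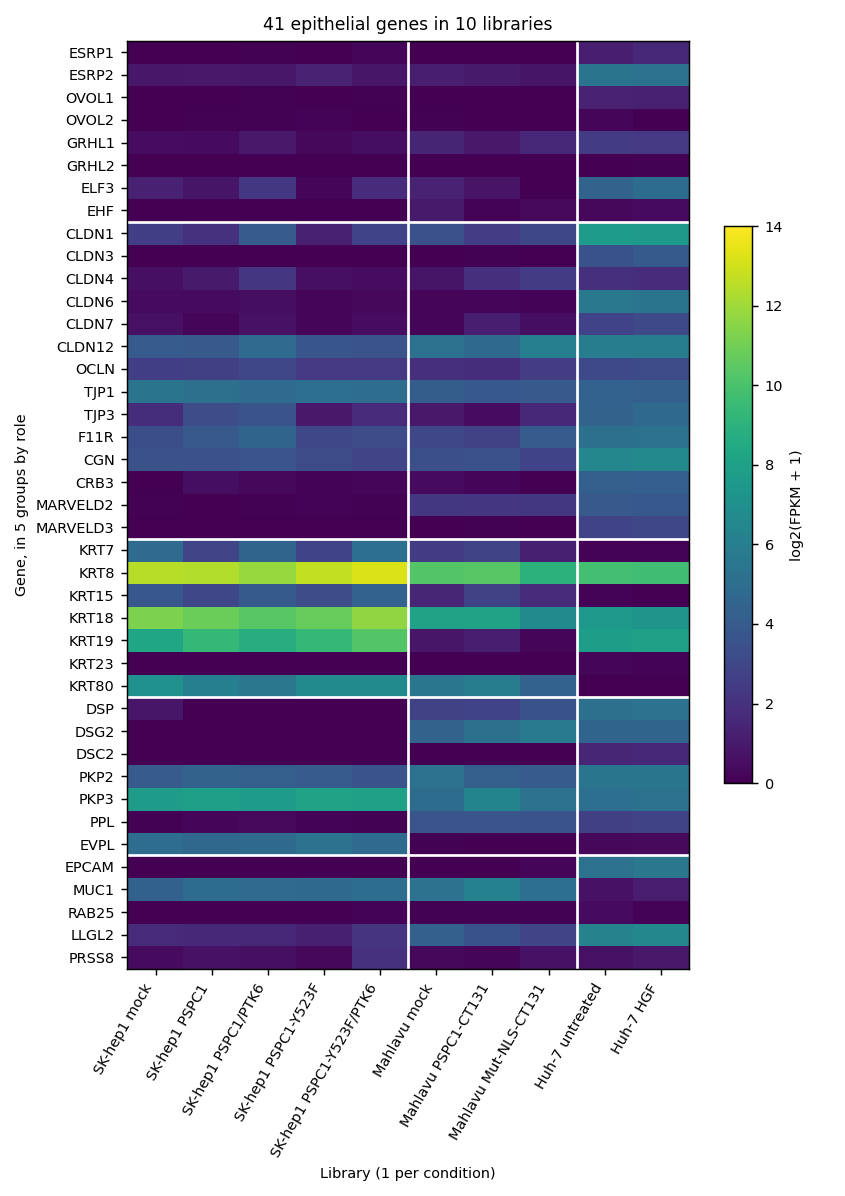
Level of each of the 41 genes (rows, in 5 groups by role) in each of the 10 libraries (columns), as the colour of log2(FPKM + 1) of the deposited values. The tight junction rows other than CLDN4, CLDN12 and TJP1 are brightest in the 2 Huh-7 columns, and the KRT8, KRT18 and KRT19 rows are brightest in the 5 SK-hep1 columns.

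To compare the lines, log2 values of quantile-normalized FPKM + 1 were fitted with limma over all 10 libraries, with the line as the only factor, and a gene was called at an adjusted p under 0.05 and a log2 difference of at least 1. The libraries of a line carried different constructs or treatment, so the spread in these tests is that between libraries of a line and not between replicate cultures. A gene was tested when its mean reached 1 FPKM in at least 1 line, which 35 of the 41 genes did. Genes that pass only through the line in which they are high had to differ, so the counts below describe the lists and are set beside the share of all 16407 tested genes. The adjusted p values of such genes, EPCAM and CLDN6 among them, are likewise descriptive.

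Between Huh-7 and SK-hep1, 21 genes were higher in Huh-7, where 23.0% of all tested genes were called in that direction, and 9 were lower, against 22.3%. Between Huh-7 and Mahlavu, 18 genes were higher in Huh-7, with 20.5% of all tested genes, and 5 were lower, with 21.1%. For Mahlavu against SK-hep1, 5 genes were higher in Mahlavu beside 12.7% of all tested genes, and 10 were lower beside 11.5%. The median log2 difference over the 35 tested genes was 1.36 for Huh-7 against SK-hep1, 1.06 for Huh-7 against Mahlavu and -0.12 for Mahlavu against SK-hep1, while over all tested genes it was 0.05, 0.05 and -0.00. The 9 genes lower in Huh-7 than in SK-hep1 were TJP1, MUC1, PKP3, EVPL and the keratins KRT7, KRT8, KRT15, KRT18 and KRT80, so that 5 of the 7 keratins ran against the claudins.

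**Figure D2:**
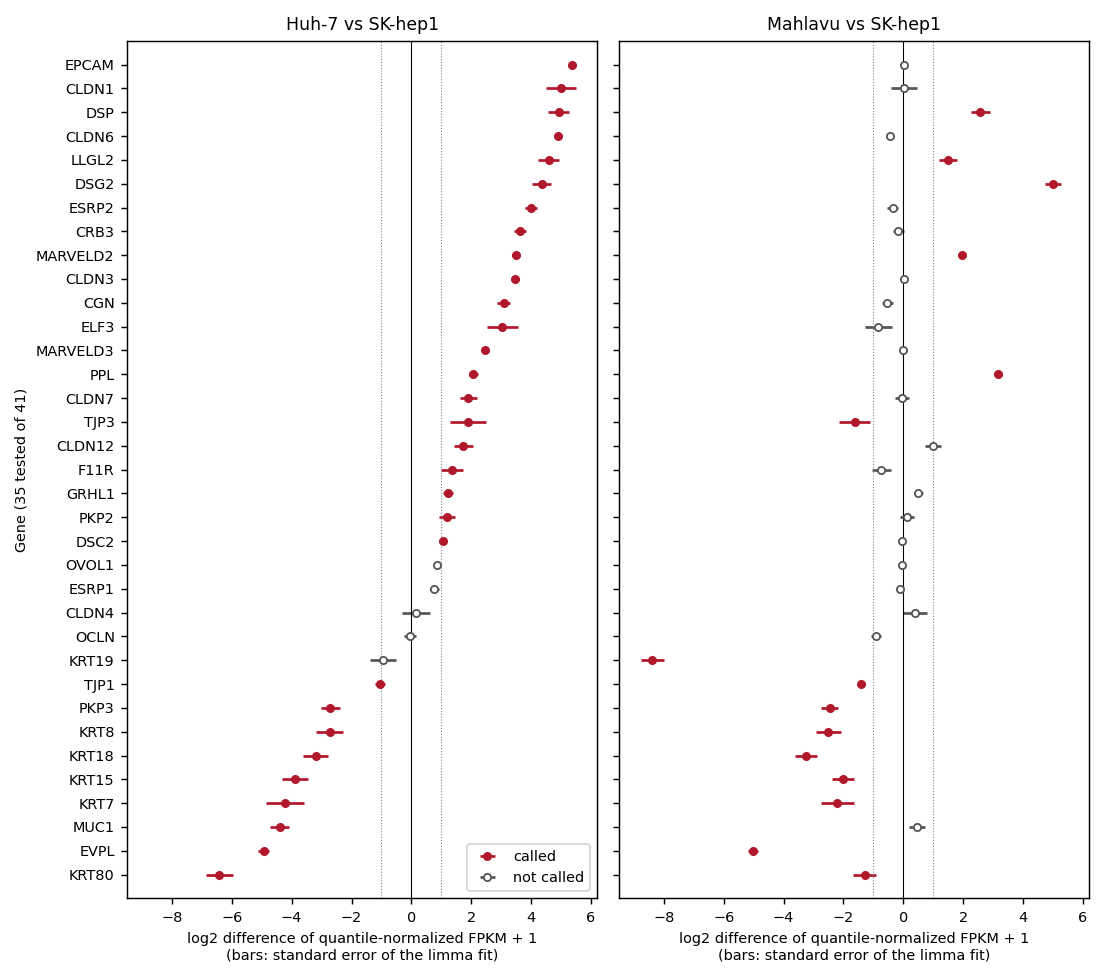
Log2 difference (quantile-normalized FPKM + 1) of the 35 tested genes for Huh-7 against SK-hep1 (left, the order of the rows) and Mahlavu against SK-hep1 (right), with the standard error of the limma fit as bars. Filled points were called and dotted lines mark log2 differences of -1 and 1; CLDN1, CLDN3, CLDN6 and EPCAM lie far right in the left panel and near 0 in the right panel.

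Below, SK-hep1 values are always given in the order mock, then PSPC1 alone and PSPC1/PTK6, then PSPC1-Y523F alone and with PTK6, Mahlavu values in the order mock, PSPC1-CT131 and Mut-NLS-CT131, and Huh-7 values in the order untreated and HGF.

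Among the regulators, ESRP2, ELF3 and GRHL1 were higher in Huh-7 than in SK-hep1. ESRP2, an RNA-binding protein that selects epithelial splice forms, was at 0.895, 0.959, 0.840, 1.49 and 0.799 FPKM in SK-hep1, at 1.30, 1.05 and 0.736 FPKM in Mahlavu, and at 41.6 and 36.5 FPKM in Huh-7. Its log2 difference was 4.0 ± 0.20 (standard error) for Huh-7 against SK-hep1 (adjusted p = 5.35e-08) and 4.36 ± 0.22 against Mahlavu (adjusted p = 6.58e-08), with no overlap between Huh-7 and other libraries, whereas SK-hep1 and Mahlavu overlapped. ELF3, an ETS-family factor of epithelial differentiation, was at 1.40, 0.716, 3.80, 0.125 and 2.47 FPKM in SK-hep1, at 1.54, 0.698 and 0.0345 FPKM in Mahlavu and at 20.6 and 29.7 FPKM in Huh-7. Every Huh-7 value of ELF3 lay above all others, and the difference from SK-hep1 was 3.04 ± 0.51 (adjusted p = 0.000397). GRHL1, a grainyhead-like factor, was at 0.371, 0.351, 0.911, 0.247 and 0.409 FPKM in SK-hep1, 1.73, 0.955 and 2.11 FPKM in Mahlavu and 4.5 and 4.03 FPKM in Huh-7. Its Huh-7 libraries exceeded those of SK-hep1 by a log2 difference of 1.21 ± 0.17 (adjusted p = 0.000101), and the difference from Mahlavu, 0.72 ± 0.18, stayed under 1. The other 5 regulators were low in all lines. ESRP1 and OVOL1 reached at most 1.92 and 1.67 FPKM, both in Huh-7, EHF at most 1.01 FPKM, and OVOL2 and GRHL2 at most 0.133 and 0.0414 FPKM.

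Several claudins were far higher in Huh-7 than in the other lines. CLDN1, a barrier-forming claudin of hepatocytes, stood at 5.00, 3.06, 15.8, 1.41 and 6.0 FPKM in SK-hep1, at 10.2, 4.77 and 7.07 FPKM in Mahlavu and at 205 and 185 FPKM in Huh-7. It was 5.01 ± 0.50 log2 units higher in Huh-7 than in SK-hep1 (adjusted p = 9.07e-06), and its SK-hep1 and Mahlavu values overlapped. CLDN6, a claudin of embryonic epithelia, was at 0.310, 0.332, 0.458, 0.199 and 0.242 FPKM in SK-hep1, at 0.148, 0.127 and 0.0881 FPKM in Mahlavu and at 47.7 and 41.4 FPKM in Huh-7, a log2 difference from SK-hep1 of 4.90 ± 0.12 (adjusted p = 2.53e-10). For CLDN3, 1 read was found in PSPC1/PTK6 SK-hep1 and 1 in the Mahlavu library labelled PSPC1-CT131, and none in the other 6 libraries of these lines. In Huh-7 it stood at 10.5 and 14.6 FPKM. CLDN7, whose promoter run is printed above, was at 0.544, 0.194, 0.618, 0.140 and 0.364 FPKM in SK-hep1, 0.130, 1.24 and 0.412 FPKM in Mahlavu, and 5.95 and 7.48 FPKM in Huh-7. All 4 of these claudins were thus higher in both Huh-7 libraries than in any other.

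CLDN12 and CLDN4 were spread otherwise. CLDN12 was at 15.3, 13.9, 29, 12.6 and 10.9 FPKM in SK-hep1, at 36.5, 26.5 and 64.9 FPKM in Mahlavu and at 57.7 and 61.0 FPKM in Huh-7, and only its difference between Huh-7 and SK-hep1 was called (1.74 ± 0.32, adjusted p = 0.000719). For CLDN4 no line difference was called, with 0.511, 1.05, 3.57, 0.463 and 0.402 FPKM in SK-hep1, 0.762, 2.66 and 4.55 FPKM in Mahlavu and 2.71 and 2.47 FPKM in Huh-7. OCLN (occludin) was read in all libraries, between 2.53 and 8.46 FPKM, and was called in no comparison. Its deposited level was higher in both Huh-7 libraries than in any SK-hep1 library, but the normalized log2 difference was -0.06 ± 0.20. In the limma fit Mahlavu against SK-hep1 (-0.91 ± 0.18, adjusted p = 0.00173) and Huh-7 against Mahlavu (0.86 ± 0.22, adjusted p = 0.0063) stayed under 2-fold.

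Of the other tetraspan and polarity proteins of the junction, MARVELD3 and CRB3 behaved like CLDN3, and MARVELD2 was graded over the lines. MARVELD3 had 0 to 2 reads in each SK-hep1 and Mahlavu library and 6.15 and 6.76 FPKM in Huh-7. MARVELD2 (tricellulin), which seals the points where 3 cells meet, was at 0.0455, 0, 0.0413, 0.117 and 0.0406 FPKM in SK-hep1, at 3.76, 3.61 and 3.88 FPKM in Mahlavu, and at 14.3 and 13.4 FPKM in Huh-7. The lines did not overlap for this gene, and it was called in all 3 comparisons, with log2 differences of 1.96 ± 0.12 for Mahlavu against SK-hep1 (adjusted p = 6.35e-07), 3.49 ± 0.14 for Huh-7 against SK-hep1 (adjusted p = 7.35e-09) and 1.53 ± 0.15 for Huh-7 against Mahlavu (adjusted p = 1.06e-05). CRB3, the Crumbs protein of the apical membrane and the gene with 5 CAGGTG letters in its printed run, was at 0, 0.458, 0.216, 0.0977 and 0.170 FPKM in SK-hep1, at 0.318, 0.208 and 0 FPKM in Mahlavu, and at 17.6 and 17.5 FPKM in Huh-7. F11R (JAM-A), an immunoglobulin-like adhesion protein, was at 9.21, 14.3, 21.5, 6.77 and 8.68 FPKM in SK-hep1, 6.91, 5.77 and 15.7 FPKM in Mahlavu and 34.6 and 38.2 FPKM in Huh-7. Its call for Huh-7 against SK-hep1 (1.36 ± 0.37, adjusted p = 0.00801) was lost without either Huh-7 library, with adjusted p of 0.0528 and 0.0806.

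The scaffolds did not share a direction. CGN was at 10.2, 10.2, 12, 8.29 and 6.60 FPKM in SK-hep1, at 9.73, 9.94 and 6.13 FPKM in Mahlavu and at 86.9 and 95.6 FPKM in Huh-7, 3.08 ± 0.22 log2 units above SK-hep1 (adjusted p = 7.08e-07). TJP3 was at 2.53, 9.05, 11.3, 0.940 and 2.26 FPKM in SK-hep1, at 0.977, 0.383 and 2.08 FPKM in Mahlavu and at 20.8 and 26.8 FPKM in Huh-7. It was called in all 3 comparisons, but for Huh-7 against SK-hep1 (1.89 ± 0.59, adjusted p = 0.0157) the adjusted p was 0.0709 and 0.137 without untreated and HGF Huh-7, and for Mahlavu against SK-hep1 (-1.62 ± 0.51, adjusted p = 0.0240) it was between 0.0519 and 0.0859 without Mahlavu mock, the library labelled PSPC1-CT131 or either Huh-7 library. TJP1 ran the other way, at 40.1, 35.3, 28.4, 33.3 and 30.9 FPKM in SK-hep1, 16.3, 13.3 and 13.8 FPKM in Mahlavu and 19.9 and 18.9 FPKM in Huh-7. All SK-hep1 libraries lay above the rest for TJP1, with log2 differences of -1.41 ± 0.14 for Mahlavu (adjusted p = 2.22e-05) and -1.04 ± 0.16 for Huh-7 (adjusted p = 0.000221) against SK-hep1. The second was -0.98, under 2-fold, without SK-hep1 mock and -0.76 on FPKM as deposited.

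Of 30 further tight junction genes fixed as a list, 21 were tested, and 9 were higher and 2 lower in Huh-7 than in SK-hep1, 10 higher and 2 lower in Huh-7 than in Mahlavu, and 7 higher and 4 lower in Mahlavu than in SK-hep1. Of 18 mesenchymal and EMT repressor genes, all tested, 9 were lower and 5 higher in Huh-7 than in SK-hep1. Against Mahlavu, 10 were lower and 2 higher in Huh-7, and in Mahlavu against SK-hep1, 6 were higher and 1 lower. The counts of all further lists stand beside the same shares of all tested genes. For Huh-7 these were 23.0% higher and 22.3% lower against SK-hep1, and 20.5% and 21.1% against Mahlavu. For Mahlavu against SK-hep1 they were 12.7% higher and 11.5% lower. The mesenchymal list did not move as 1 group. SPARC, a matrix protein, averaged 36.7 FPKM in Huh-7, 2994 FPKM in SK-hep1 and 2503 FPKM in Mahlavu, and TWIST1, an EMT transcription factor, was listed at 0 in both Huh-7 libraries. COL1A2, a collagen chain, ran the other way, with means of 146 FPKM in Huh-7 and 0.894 FPKM in SK-hep1, and CDH2 (N-cadherin) was at 20.0 and 23.2 FPKM in Huh-7 against at most 0.0924 FPKM in SK-hep1. Of the repressors that bind CAGGTG, SNAI1 was at 13.98 and 14.2 FPKM in Huh-7, at 8.29 to 17.2 FPKM in Mahlavu and at most 0.0587 FPKM in SK-hep1, and ZEB1 was at 6.72 and 7.98 FPKM in Huh-7, at 11.3 to 24.4 FPKM in Mahlavu and at 2.92 to 7.01 FPKM in SK-hep1. SNAI2 and ZEB2 were at most 0.547 and 0.0703 FPKM in Huh-7, against at least 3.53 and 3.03 FPKM in SK-hep1. The summed level of that list was 2491 to 2662 FPKM in Huh-7, where FN1 alone gave 2144 and 2291 FPKM, 3705 to 5792 FPKM in SK-hep1 and 3924 to 4865 FPKM in Mahlavu. The 12 endothelial genes summed to 153 to 249 FPKM in SK-hep1, nearly all of it ENG, and to at most 8.53 FPKM in the other lines. KDR, ERG and EMCN were listed at 0 in all 5 SK-hep1 libraries and in both Huh-7 libraries. Of the 5 endothelial genes tested, none was higher and 2 were lower (ENG and ROBO4) in Mahlavu than in SK-hep1. In Huh-7 against SK-hep1, 1 was higher (PECAM1) and the same 2 were lower. In Huh-7 against Mahlavu, 1 was higher (PECAM1) and 1 lower (ESAM). Of the 8 biliary and progenitor genes, 7 were tested. Among these, 4 were higher and 1 lower in Huh-7 than in SK-hep1, and 5 higher and 2 lower in Huh-7 than in Mahlavu. In Mahlavu against SK-hep1, 2 were higher and 1 lower. The part of these other cell states in the line differences was not tested.

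Keratins were the most abundant of the 41 genes. KRT8, the type II chain of simple epithelia (chr12:52897187-52949954), was at 5749, 5367, 3655, 6701 and 9434 FPKM in SK-hep1, at 1239, 1311 and 504 FPKM in Mahlavu and at 897 and 825 FPKM in Huh-7. It ranked 1 to 11 among all genes by FPKM in the SK-hep1 libraries, 43 to 203 in Mahlavu and 92 to 101 in Huh-7. SK-hep1 exceeded both other lines in every library, and the log2 difference from SK-hep1 was -2.50 ± 0.41 for Mahlavu (adjusted p = 0.000624) and -2.73 ± 0.47 for Huh-7 (adjusted p = 0.000453). Its type I partner KRT18 (chr12:52948871-52952901) was at 2409, 1848, 1329.7, 1727 and 3233 FPKM in SK-hep1, at 262, 269 and 102 FPKM in Mahlavu and at 174 and 152 FPKM in Huh-7. The log2 difference of KRT18 was -3.25 ± 0.36 for Mahlavu against SK-hep1 (adjusted p = 4.74e-05) and -3.20 ± 0.41 for Huh-7 against SK-hep1 (adjusted p = 6.23e-05), while Mahlavu and Huh-7 overlapped for both genes. The ratio of KRT8 to KRT18 FPKM was 2.39 to 3.88 in SK-hep1, 4.72 to 4.94 in Mahlavu and 5.16 to 5.41 in Huh-7, and these ranges did not overlap.

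Limits on these 2 genes come from copies and from overlap. Their listed loci overlap on opposite strands, and whether the counting used strand was not given in the sources used here. The 51 KRT8 pseudogenes held 0.0326% to 1.68% of the reads of KRT8 and these pseudogenes together. For the 67 KRT18 pseudogenes the share, taken with KRT18 in the same way, was 0.0170% to 1.04%.

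KRT19, the smallest keratin and a marker of bile duct and progenitor cells (chr17:41523617-41528308), divided the lines in another way. It was at 305, 639, 429, 646 and 1210.0 FPKM in SK-hep1 and at 219 and 261 FPKM in Huh-7, yet in Mahlavu it was at 0.828, 1.22 and 0.141 FPKM, from 14, 18 and 2 reads. Mahlavu thus held KRT8 and KRT18 nearly without KRT19, and the difference from SK-hep1 was -8.39 ± 0.38 on the log2 scale (adjusted p = 7.91e-08), the widest among the tested genes of the set in any line comparison. Huh-7 and SK-hep1 did not overlap, but their difference was not called (-0.94 ± 0.44, adjusted p = 0.0814).

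KRT80, KRT7 and KRT15 were read in SK-hep1 and Mahlavu and were at or near 0 in Huh-7. KRT80, a type II keratin of differentiating epithelia, was at 136, 64.3, 45.7, 103 and 101 FPKM in SK-hep1 and 44.3, 58.2 and 20.5 FPKM in Mahlavu, and had no read in either Huh-7 library. Taken against the FPKM that 3 reads would give in the shallower Huh-7 library, 0.0530, the lowest SK-hep1 library was at least 864-fold higher and the lowest Mahlavu library at least 387-fold higher. The lower KRT80 of Mahlavu than SK-hep1 (-1.30 ± 0.39, adjusted p = 0.0201) rested on 1 library, with -0.86 and adjusted p = 0.0942 when that labelled Mut-NLS-CT131 was left out. KRT7, the type II keratin of ducts, was at 28.8, 6.65, 21.6, 6.14 and 34.1 FPKM in SK-hep1, at 4.39, 6.29 and 1.31 FPKM in Mahlavu and at 0.101 and 0.109 FPKM, 1 read each, in Huh-7. KRT15, a type I keratin of basal and progenitor cells, was at 12.8, 6.90, 14.6, 8.75 and 19.8 FPKM in SK-hep1, 1.79, 5.89 and 2.23 FPKM in Mahlavu, and 0.0917 and 0 FPKM in Huh-7. Both were called in all 3 comparisons, with line means falling from SK-hep1 to Mahlavu to Huh-7, although SK-hep1 and Mahlavu overlapped for KRT7, and between Huh-7 and Mahlavu KRT7 lost its call without either Huh-7 library, without Mahlavu mock or without the library labelled PSPC1-CT131 (adjusted p from 0.0582 to 0.127), and KRT15 without HGF Huh-7 (adjusted p = 0.0506). KRT23 did not exceed 0.167 FPKM anywhere.

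Of 29 other keratins only 4 were tested. Compared with SK-hep1, 2 of them were lower in Mahlavu, beside 11.5% of all tested genes, and all 4 in Huh-7, beside 22.3%. They were led by KRT81, a hair keratin, with 1460.0 FPKM in SK-hep1 mock, 6038 FPKM in PSPC1-Y523F/PTK6 SK-hep1, a mean of 0.719 FPKM in Mahlavu and 0 in Huh-7. KRT81 has a near-identical neighbour, KRT86, so the split of reads between them is uncertain.

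In SK-hep1, DSG2, DSP and PPL were lower and PKP3 and EVPL higher than in both other lines. DSG2, the desmosomal cadherin of simple epithelia (chr18:31498043-31549008), had no read in any of the 5 SK-hep1 libraries, where 3 reads would have given at most 0.0429 FPKM. It was at 21.0, 35.1 and 56.4 FPKM in Mahlavu and at 22.2 and 21.6 FPKM in Huh-7, so the lowest Mahlavu library was at least 490.3-fold and the lowest Huh-7 library at least 504-fold above that floor. Mahlavu and Huh-7 overlapped for DSG2. DSC2, its partner cadherin, had 0 to 5 reads in each SK-hep1 and Mahlavu library and was at 1.88 and 1.97 FPKM in Huh-7. DSP, the plakin that anchors keratin to the desmosome (chr6:7541575-7586717), was at 0.784, 0, 0.00684, 0.00775 and 0.00673 FPKM in SK-hep1, at 5.69, 6.0 and 10.7 FPKM in Mahlavu and at 34.5 and 39.6 FPKM in Huh-7. Its lines did not overlap, and all 3 differences were called (2.58 ± 0.31, 4.92 ± 0.35 and 2.34 ± 0.38 on the log2 scale for Mahlavu against SK-hep1, Huh-7 against SK-hep1 and Huh-7 against Mahlavu). In SK-hep1, 104 DSP reads were in mock and 0 or 1 in each of the 4 transfectants. DSP was under the 1 FPKM limit there, and without that limit it was lower than mock by over 2-fold in all 4 (log2 differences from -1.20 to -1.09).

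Plakophilins, the armadillo proteins of the plaque, were read in all libraries. PKP3 was at 207, 234, 211, 270.5 and 258 FPKM in SK-hep1, at 30.1, 79.6 and 37.6 FPKM in Mahlavu and at 33.3 and 36.2 FPKM in Huh-7. SK-hep1 held the most PKP3 in every library, with log2 differences against it of -2.46 ± 0.28 for Mahlavu (adjusted p = 6.36e-05) and -2.70 ± 0.33 for Huh-7 (adjusted p = 3.81e-05). PKP2 was at 15.2, 20.6, 17.5, 15.8 and 11.5 FPKM in SK-hep1, at 36.5, 17.9 and 16.0 FPKM in Mahlavu and at 42.2 and 43.0 FPKM in Huh-7, which exceeded SK-hep1 by 1.19 ± 0.27 (adjusted p = 0.00272). As a result the ratio of PKP3 to PKP2 FPKM was 11.4 to 22.4 in SK-hep1 against 0.789 and 0.842 in Huh-7, and 0.824, 4.44 and 2.35 in Mahlavu. The call of PKP2 between Huh-7 and Mahlavu (1.06 ± 0.29, adjusted p = 0.00946) was lost without any 1 of 4 libraries, those of Huh-7 and the 2 Mahlavu libraries other than mock, with values between 0.81 and 1.07.

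Envoplakin (EVPL) and periplakin (PPL), plakins that pair in the cornified envelope, were exchanged between lines. EVPL (chr17:76004502-76027452) was at 31.3, 24.5, 27.3, 38.9 and 28.7 FPKM in SK-hep1, 0.0429, 0.0246 and 0 FPKM in Mahlavu and 0.223 and 0.271 FPKM in Huh-7. PPL (chr16:4882507-4960741) was at 0.0780, 0.167, 0.297, 0.112 and 0.0418 FPKM in SK-hep1, 12, 11.8 and 10.9 FPKM in Mahlavu and 5.29 and 6.43 FPKM in Huh-7. For Mahlavu against SK-hep1 the log2 differences were -5.02 ± 0.16 for EVPL (adjusted p = 8.31e-09) and 3.16 ± 0.13 for PPL (adjusted p = 4.79e-08), and for Huh-7 against SK-hep1 they were -4.93 ± 0.19 and 2.07 ± 0.15. PPL was also lower in Huh-7 than in Mahlavu (-1.10 ± 0.17, adjusted p = 0.000256), a value just past the fold used here, which became -0.98 without the library labelled PSPC1-CT131 and -0.98 without untreated Huh-7.

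Outside the 41 genes, 12 of 19 further desmosome and adherens junction genes were tested. Of these, 7 were higher and none lower in Huh-7 than in SK-hep1 (23.0% and 22.3% of all tested genes). Against Mahlavu, 7 were higher and 2 lower in Huh-7 (20.5% and 21.1%). In Mahlavu against SK-hep1, 3 were higher and 1 lower (12.7% and 11.5%). CDH1 (E-cadherin) averaged 118 FPKM in Huh-7, 0.0366 FPKM in SK-hep1 and 0.405 FPKM in Mahlavu. JUP (plakoglobin), which binds both kinds of cadherin, averaged 104 FPKM in Huh-7, 75.8 FPKM in SK-hep1 and 1.78 FPKM in Mahlavu, so it was low in Mahlavu although DSG2 and DSP were read there. Of 19 further epithelial regulator and serine protease genes, 10 were tested, with 7 higher and 1 lower in Huh-7 than in SK-hep1, 6 higher and none lower in Huh-7 than in Mahlavu, and 2 in each direction between Mahlavu and SK-hep1.

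EPCAM, the epithelial adhesion molecule used to enrich tumour cells (chr2:47345158-47387601), was read at 38.2 and 45.5 FPKM in Huh-7 and with 0 to 3 reads in each other library. Its log2 difference of 5.35 ± 0.12 from SK-hep1 (adjusted p = 1.35e-10) was the widest of the 35 tested genes in that direction. EPCAM was tested through its Huh-7 level alone, so it had to differ and this adjusted p is descriptive. LLGL2, a basolateral polarity protein, was graded like tricellulin, with 2.19, 1.97, 1.96, 1.31 and 3.45 FPKM in SK-hep1, 18.8, 10.5 and 6.62 FPKM in Mahlavu and 76.7 and 88.6 FPKM in Huh-7, and was called in all 3 comparisons. MUC1, an apical mucin, ran against EPCAM, with 19.6, 30.3, 28.8, 26.2 and 31.9 FPKM in SK-hep1, 39.5, 70.0 and 33.1 FPKM in Mahlavu and 0.601 and 1.16 FPKM in Huh-7 (-4.40 ± 0.31 against SK-hep1, adjusted p = 6e-07). RAB25, a small GTPase of epithelial recycling, did not exceed 0.319 FPKM. The serine protease PRSS8 stayed under 1 FPKM except at 3.06 FPKM in PSPC1-Y523F/PTK6 SK-hep1.

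Within SK-hep1, the 4 transfectants were compared with the 1 mock library, which they share, and a gene was called when quantile-normalized FPKM + 1 differed at least 2-fold and its mean over both libraries reached 1 FPKM. There is no p-value here, and the exact binomial (Clopper-Pearson) 95% intervals of read ratios that follow cover counting error only. With PSPC1, 2 of 19 tested genes were higher (TJP3 and KRT19), beside 3.14% of all 11857 genes tested, and 1 was lower (KRT7), beside 2.01%. With PSPC1/PTK6, 3 of 20 were higher (CLDN1, CLDN4 and TJP3), beside 4.98%, and 1 was lower (KRT80), beside 3.01%. PSPC1-Y523F had 1 of 19 higher (KRT19), beside 2.56%, and 2 lower (CLDN1 and KRT7), beside 2.15%. In PSPC1-Y523F/PTK6, 2 of 20 were higher (KRT19 and PRSS8), beside 3.12%, and none was lower, beside 1.36%. The median log2 difference over the tested members was -0.12, 0.00, -0.18 and 0.28 in this order, against -0.03, -0.03, -0.01 and -0.04 over all genes. At these settings the changes in these transfectants were thus in at most 4 tested genes each: KRT7, KRT19, KRT80, CLDN1, CLDN4, TJP3 and PRSS8.

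Of the 7 keratins, KRT19 was called higher in 3 transfectants, although with GC content and length taken out its log2 difference was 0.93 with PSPC1 and 0.99 with PSPC1-Y523F. Its read share was 2.09 times that of mock with PSPC1 (95% interval 2.02 to 2.17), 2.12 times with PSPC1-Y523F (2.05 to 2.19) and 3.97 times with PSPC1-Y523F/PTK6 (3.85 to 4.09), and all 4 transfectants lay above the 305 FPKM of mock. On the quantile-normalized scale the log2 differences were 1.08, 1.11 and 1.94, and 0.58 with PSPC1/PTK6. KRT7 moved otherwise, for it was low in both transfectants that lacked PTK6 and near mock in both that had it. Its read share was 0.231 times that of mock with PSPC1 (0.179 to 0.294) and 0.213 times with PSPC1-Y523F (0.165 to 0.273), and the log2 differences were -1.75 and -1.80. With PTK6 the shares were 0.749 times mock on PSPC1 (0.642 to 0.872) and 1.18 times on PSPC1-Y523F (1.03 to 1.36). On the quantile-normalized scale the partner genes KRT8 and KRT18 stayed within 2-fold of mock in all 4 transfectants. On TMM-scaled counts KRT18 was lower by over 2-fold with PSPC1/PTK6. Since KRT8 held the highest rank in both Y523F libraries, quantile normalization gives it the same value in these (log2 difference 0.47). Its read shares there were 1.17 and 1.64 times mock.

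KRT80 was below its mock level in every transfectant and called in PSPC1/PTK6, at 0.336 times the mock share (0.324 to 0.349, log2 difference -1.53). With PSPC1 alone it was lower by over 2-fold only on deposited FPKM and on TMM-scaled counts. TJP3 was 3.58 times mock with PSPC1 (2.84 to 4.56) and 4.46 times with PSPC1/PTK6 (3.57 to 5.63), while both Y523F transfectants lay below mock in FPKM. CLDN4 was 6.97 times mock with PSPC1/PTK6 (4.58 to 11), from 25 reads in mock and 192 in the transfectant. CLDN1 was 3.16 times mock with PSPC1/PTK6 (2.71 to 3.69) and 0.281 times with PSPC1-Y523F (0.207 to 0.378).

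To ask what PTK6 adds, each transfectant with PTK6 was set against that with the same PSPC1 form alone. With PTK6 added to PSPC1, 3 of 20 tested genes were higher (ELF3, CLDN1 and KRT7), beside 3.00% of all 12280 genes, and none was lower, beside 1.67%. With PTK6 added to PSPC1-Y523F, 5 of 21 were higher (the same 3 and KRT15 and PRSS8), beside 3.50%, and none was lower, beside 1.96%. The median over the tested members was -0.06 and 0.30, and over all genes -0.02 and -0.03. PSPC1 itself differed within both pairs, at 7.01 against 26.4 FPKM and at 2.28 against 70.9 FPKM, so added PTK6 and a higher PSPC1 level cannot be told apart. ELF3, CLDN1 and KRT7 were higher with PTK6 on either PSPC1 form, in pairs of libraries that do not overlap between the comparisons. KRT7 was 3.24 times higher with PTK6 on PSPC1 (2.53 to 4.19) and 5.56 times on PSPC1-Y523F (4.37 to 7.15). CLDN1 was 5.16 times (4.25 to 6.31) and 4.27 times (3.21 to 5.76), and ELF3 was 5.31 times (3.37 to 8.75) and 19.8 times (7.46 to 74.1), the latter from 4 reads in PSPC1-Y523F. KRT15 was 2.26 times higher with PTK6 on PSPC1-Y523F (2.0 to 2.55), and PRSS8, at 5 and 78 reads, 13.5 times (5.56 to 42.9). With a pseudocount of 5 in place of 1, only CLDN1 on PSPC1 and KRT7 on PSPC1-Y523F stayed past 2-fold.

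**Figure D3:**
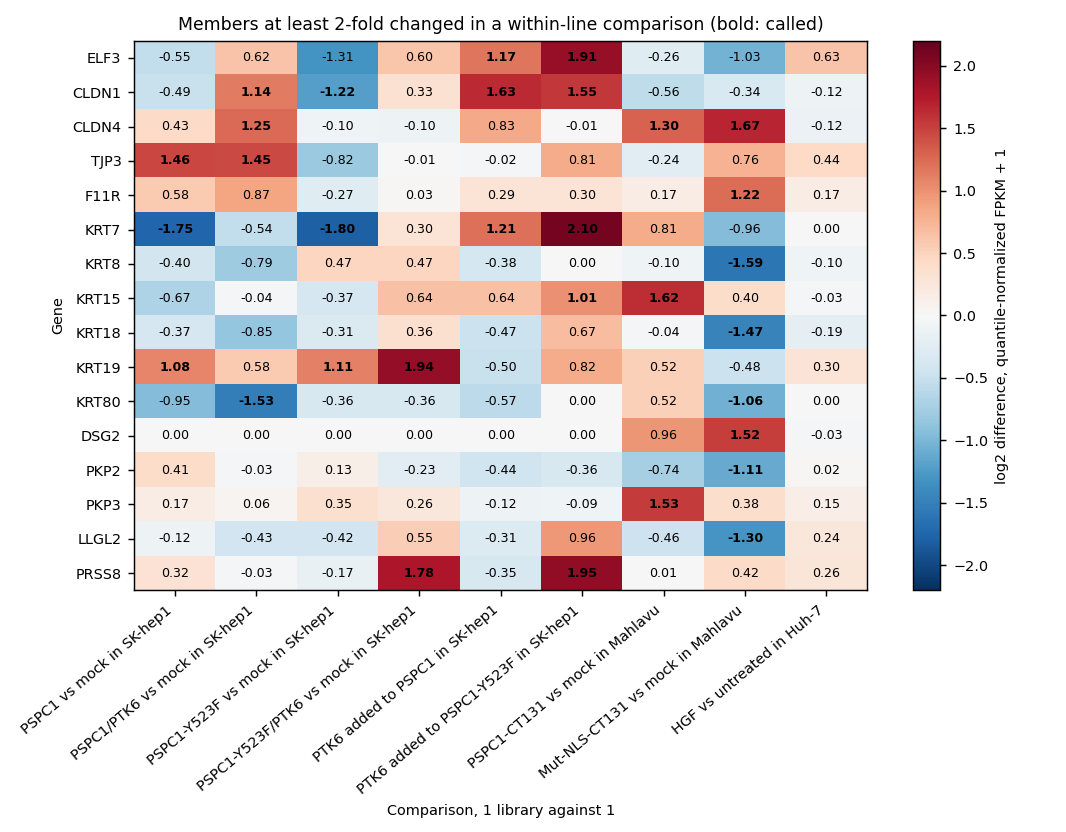
Log2 difference (quantile-normalized FPKM + 1) of the 16 genes at least 2-fold changed in any comparison of 2 libraries within a line (rows) in each of the 9 comparisons (columns); bold values passed both the 2-fold limit and the mean of 1 FPKM. The ELF3, CLDN1 and KRT7 rows are bold in both columns for added PTK6, and the HGF column has no bold value.

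Other lists in the same SK-hep1 libraries changed as well. Of the mesenchymal list, with 14 or 15 genes tested, 1 or 2 were higher and 2 lower than mock in each transfectant. Over all genes, 2.56% to 4.98% were higher and 1.36% to 3.01% lower than mock. With PTK6 added to PSPC1-Y523F 1 of the list was higher (LOX, 2.27), beside 3.50% of all genes. FN1 (fibronectin) was lower in all 4, from 95.7 FPKM to 18.2, 11.2, 21.1 and 41.8 FPKM, with log2 differences of -2.13, -3.01, -1.93 and -1.04. LOX, a collagen cross-linking enzyme, was higher with PSPC1/PTK6 (1.34) and PSPC1-Y523F/PTK6 (2.16), S100A4 with PSPC1 (1.14) and COL1A2 with PSPC1-Y523F (1.32), while SNAI2 was lower with PSPC1 (-1.73) and PSPC1/PTK6 (-1.52). JUP was higher with PSPC1 (1.17) and PSPC1/PTK6 (1.80), at 40.3 FPKM in mock and 96.7 and 152 FPKM. The keratins KRT81 and KRT86 were higher with PSPC1-Y523F/PTK6 than with mock (2.04 and 1.09). The log2 differences of all tested genes had a Spearman correlation with GC content of 0.18, -0.09, 0.25 and 0.26 for the 4 transfectants, in the order used above, against mock, and of -0.31 and -0.02 for PTK6 added to each form, and the tested members had a median GC content of 56.2% to 56.4% against 49.1% to 49.2% over all genes. When GC content and length were taken out, KRT19 fell under 2-fold with PSPC1 and PSPC1-Y523F as given above, and the other genes called in these 6 SK-hep1 comparisons remained past 2-fold.

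In Mahlavu, 3 of 24 tested genes were higher in the library labelled PSPC1-CT131 than in mock (CLDN4, KRT15 and PKP3), beside 2.83% of all 13051 genes, and none was lower, beside 2.90%. PKP3 was 2.65 times mock (2.40 to 2.92), KRT15 3.30 times (2.55 to 4.30) and CLDN4 3.50 times (2.42 to 5.16). The log2 differences of this library rose with GC content over all genes (Spearman correlation 0.55 over genes, which share these 2 libraries), and the tested members had a median GC content of 56.1% against 48.6%. Their median log2 difference was 0.31 as computed and 0.17 with GC content and length taken out, where KRT15 and PKP3 remained past 2-fold, CLDN4 stood at 0.99 and DSG2 was past 2-fold instead.

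The library labelled Mut-NLS-CT131 showed the most changes, with 3 of 23 tested genes higher (CLDN4, F11R and DSG2), beside 2.93% of all 13218 genes, and 5 lower (KRT8, KRT18, KRT80, PKP2 and LLGL2), beside 3.07%. KRT8 was 0.407 times mock (0.398 to 0.415) and KRT18 0.389 times (0.372 to 0.407), so both chains of the pair were lower together while their ratio stayed at 4.94 against 4.72 in mock. KRT80 was 0.463 times mock (0.435 to 0.492), PKP2 0.439 times (0.398 to 0.484) and LLGL2 0.352 times (0.296 to 0.417). DSG2 went up, to 2.68 times mock (2.53 to 2.84), with F11R at 2.27 times (1.98 to 2.60) and CLDN4 at 5.97 times (4.22 to 8.65). Within the desmosome, the cadherin DSG2 was thus higher and the plaque protein PKP2 lower in the same library. DSP, at 10.7 FPKM against 5.69 FPKM in mock, did not reach 2-fold (log2 difference 0.95). On TMM-scaled counts DSP was past 2-fold and KRT80, at -0.95, was not, and DSP was also past it with a pseudocount of 0.1. The median over the tested members was -0.00, and over all genes 0.00.

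In Huh-7, HGF changed none of 30 tested genes by 2-fold. Over all 14264 genes tested, 0.435% were higher and 0.315% lower by that much. The widest differences among the members were 0.63 for ELF3, from 20.6 to 29.7 FPKM, and -0.22 for CLDN6, and the median was 0.11 against 0.00 over all genes. EPCAM was at 38.2 and 45.5 FPKM, CLDN1 at 205 and 185 FPKM and KRT19 at 219 and 261 FPKM without and with HGF. With 1 library on each side, no difference of either size has a replicate check.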

How the data were processed

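Total RNA of 10 libraries was sequenced, each with its own gene table. SK-hep1 and Mahlavu tables, as deposited by the authors, hold raw read counts and FPKM, and the 2 Huh-7 tables hold FPKM only, from which whole reads were recovered (100.0% of usable genes within 0.01). Labels describe poly-T selection and the study's methods rRNA depletion. The submitters' processing notes name TopHat2 2.0, HTSeq 0.6.1, edgeR and GRCh38.p12, the study's methods hg18, and 97.5% of genes share GENCODE 29 positions, so GRCh38 coordinates were used. The length behind FPKM was shorter than that listed for 61.9% of genes, with a median ratio of 0.517. Depth was 15245935 to 24278662 reads.

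FPKM were quantile-normalized and log2-transformed with a pseudocount of 1. Conditions within a line were compared by fold (mean of at least 1 FPKM, 2-fold, no p), and lines with limma 3.58.1 (trend, Benjamini-Hochberg adjustment, R 4.3.3). On simulated data limma called 93 of 100 genes changed 4-fold, 99 of 100 changed 8-fold and 3 of 16207 unchanged genes for Mahlavu against SK-hep1. Read ratios, Poisson intervals (95%) and floors (3 reads) cover counting error only. Alternatives were other pseudocounts, no filter, deposited FPKM, GC and length correction, TMM, edgeR 4.0.16 and DESeq2 1.42.0 on counts, and each library left out. The use of Mahlavu mock as the only Mahlavu library was chosen after seeing the data. Members and lists were chosen with earlier results of these data known. Members called in a line comparison or changed 2-fold, with 1 FPKM in at least 1 library, are given by library, and up to 3 called genes with the widest difference are named per further list. ENG, KDR, ERG, EMCN, the SNAI and ZEB genes, and CDH2 and FN1 in Huh-7, were named after their values were seen.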

Additional observations from a re-analysis of the deposited data

How the results depend on the processing

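Between lines, leaving out each of the 10 libraries gave 14 to 16 called genes for Mahlavu against SK-hep1 (15 with all libraries), 28 to 30 for Huh-7 against SK-hep1 (30 with all) and 20 to 24 for Huh-7 against Mahlavu (23), and 13, 27 and 19 of the called genes kept their call in every one. A pseudocount of 5 lowered the last comparison to 15 genes. With Mahlavu mock as its only library, the counts were 13, 30 and 20, and by edgeR and DESeq2 Mahlavu against SK-hep1 had 18 and 17. Within lines, a pseudocount of 5 lowered the count from 4 to 1 for PSPC1/PTK6 (KRT80, lower), from 2 to 1 for PSPC1-Y523F/PTK6, from 3 to 1 for PTK6 added to PSPC1, from 5 to 1 for PTK6 added to PSPC1-Y523F, from 3 to 1 for PSPC1-CT131 and from 8 to 3 for Mut-NLS-CT131, a setting that by its construction shrinks differences of low genes. Without the filter, PSPC1-Y523F had 5 in place of 3, through DSP and ELF3. Deposited FPKM gave 5 in place of 3 for PTK6 added to PSPC1, through CLDN4 and CLDN12. For PSPC1/PTK6 against mock, deposited FPKM gave 6 in place of 4, through ELF3 and F11R. TMM-scaled counts also gave 6 there, through F11R and KRT18, the latter lower. TMM-scaled counts gave 9 in place of 5 for PTK6 added to PSPC1-Y523F, adding TJP3, KRT18, KRT19 and LLGL2, and 5 in place of 3 for PSPC1-CT131, adding DSG2 and MUC1. No difference of a single called gene changed sign under these alternatives, and the median for Mut-NLS-CT131 was 0.04 with GC content and length taken out and -0.00 as reported. Of 1050 single-gene line values under alternatives, 50 lost their call. Of 186 single-gene values within lines, 111 moved beyond their counting interval. No paired analysis was possible because each condition has 1 library. With 1 library per condition, changes in genes of few reads such as ELF3, CLDN4 and PRSS8 are the least certain.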
